A study of Mus musculus with 14 samples.

Results

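Translation initiation factors are the proteins that bring the first methionine tRNA, the small ribosomal subunit and the mRNA together at the start codon. Their genes were taken as all rows of the 3 count tables whose gene symbol starts with Eif followed by a digit from 1 to 6, without the 4E-binding proteins (Eif4ebp), the eIF2 kinases (Eif2ak) and pseudogenes, which left 48 of 37310 genes. In each comparison 46 of the 48 had enough reads to be tested. The other two were Eif4e1b, with 1 read in all 14 libraries together, and Eif2c5, with 0 reads.

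The libraries are RNA-seq of mouse pancreas, all labelled C57BL/6. Wild-type β-cells, which make insulin, came from neonates at postnatal day 6 (n = 3) and adults at day 45 (n = 3). Whole islets, which also hold other endocrine, vascular and connective tissue cells, came from mice of 8 weeks labelled TSC1 KO (n = 2) or RC control (n = 2), and from mice of 4 weeks labelled Db (n = 2) or BKS control (n = 2). The design text places the Tsc1 knockout in β-cells; the Cre driver, the genotype of the controls, the meaning of RC and any pooling of animals are not given in the sources used here, and the prefix BKS stands beside a strain label of C57BL/6. TSC1 is a part of the complex that restrains the kinase mTORC1, and Db is the usual name of a leptin receptor mutation that gives obesity and diabetes in mice.

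Initiation starts when eIF2, loaded with GTP and the initiator tRNA, joins the small subunit together with eIF1, eIF1A, eIF5 and the many-subunit eIF3. The eIF4F group then brings the mRNA: eIF4E holds the cap, eIF4G is the scaffold, and the helicase eIF4A, helped by eIF4B and eIF4H, unwinds the leader. eIF2B reloads eIF2 with GTP, and this is the step blocked in stress, while mTORC1 acts on the cap step through the 4E-binding proteins. In β-cells, which translate very large amounts of proinsulin, these controls are known to matter for survival.

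Promoter sequences are shown for 4 genes of the helicase and scaffold groups whose β-cell values are described in detail further on. They were chosen with those values known, and Eif4a1 among them did not pass the age test. Each window runs 5′ to 3′ from 250 bases before to 50 bases after the RefSeq transcript start in GRCm38.p6, and capitals mark the E-box CACGTG, which reads the same on both strands. The windows are chr11:69672374-69672673 on the minus strand, chr16:23107218-23107517 on the plus strand, chr16:20672477-20672776 on the plus strand and chr5:134639360-134639659 on the minus strand.
Eif4a1: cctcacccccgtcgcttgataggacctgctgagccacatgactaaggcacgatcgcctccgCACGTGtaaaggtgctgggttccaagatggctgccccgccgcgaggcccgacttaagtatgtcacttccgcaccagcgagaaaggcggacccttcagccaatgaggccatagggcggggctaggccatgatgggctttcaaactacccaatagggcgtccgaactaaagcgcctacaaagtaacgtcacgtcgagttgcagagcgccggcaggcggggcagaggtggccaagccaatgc
Eif4a2: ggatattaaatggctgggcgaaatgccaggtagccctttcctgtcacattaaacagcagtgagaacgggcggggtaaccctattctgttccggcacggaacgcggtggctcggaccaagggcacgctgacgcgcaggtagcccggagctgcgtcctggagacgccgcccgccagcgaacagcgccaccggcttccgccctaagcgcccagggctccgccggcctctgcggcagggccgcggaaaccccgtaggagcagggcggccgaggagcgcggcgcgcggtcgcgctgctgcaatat
Eif4g1: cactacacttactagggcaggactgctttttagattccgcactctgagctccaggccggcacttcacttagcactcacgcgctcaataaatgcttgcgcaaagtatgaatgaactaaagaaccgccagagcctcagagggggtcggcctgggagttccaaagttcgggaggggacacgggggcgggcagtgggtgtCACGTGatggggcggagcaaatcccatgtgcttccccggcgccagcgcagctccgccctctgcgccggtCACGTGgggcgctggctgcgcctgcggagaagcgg
Eif4h: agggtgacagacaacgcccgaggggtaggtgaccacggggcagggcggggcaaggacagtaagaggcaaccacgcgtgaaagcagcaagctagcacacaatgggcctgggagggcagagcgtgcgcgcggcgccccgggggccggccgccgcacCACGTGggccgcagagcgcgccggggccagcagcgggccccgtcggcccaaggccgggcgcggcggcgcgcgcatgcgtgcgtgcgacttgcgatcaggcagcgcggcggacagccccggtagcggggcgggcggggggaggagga
The E-box stands in the windows of Eif4a1, Eif4g1 and Eif4h and not in that of Eif4a2. The window of Eif4a3, which was called lower in adults like Eif4g1 and Eif4h, holds none either. A promoter was at hand for 39 of the 48 genes, and 10 of the 39 (25.6%) held CACGTG, against 8.09% of 27025 genes. These were Eif1b, Eif3a, Eif3f, Eif3k, Eif4a1, Eif4e, Eif4g1, Eif4h, Eif5a and Eif5a2. Of 5 other motifs searched on both strands, GGAAGTG was found in 33.3% of the 39 against 12.5% of all genes and ACTTCCG in 28.2% against 7.2%; these can share letters when read on opposite strands. CCAAT was found in 33.3% against 41.1%, TGATGNAA in 2.56% (Eif2s3x) against 4.51% and TGACGTCA in 0 of 39 against 2.03%. The 27025 genes were not matched to the 39 for GC share or for expression. A gene with several windows counted when any of them held the motif. By window CACGTG stood in 23.5% of the 51 windows of these genes against 7.15% of all windows. A match describes letters in the window only.

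Gene counts per library ran from 3507929 to 17688772. Initiation factor reads made up 0.655% to 0.725% of gene counts in neonatal and 0.571% to 0.627% in adult β-cells. They made up 0.378% and 0.405% in RC control, 0.335% and 0.299% in TSC1 KO, 0.251% and 0.171% in BKS control and 0.279% and 0.308% in Db islets (95% Wilson intervals within ± 0.0057 percentage points, for counting error only). Other parts of the libraries moved too. The insulin genes took 24.53% and 27.86% of counts in RC control but 1.05% and 0.97% in TSC1 KO islets, where mitochondrially encoded genes took 39.77% and 46.83%. Of 10 β-cell markers 9 were lower in TSC1 KO islets. Their summed level was 12860 and 13360 CPM, counts scaled to library size, against 235000 and 265500. Markers of the non-β endocrine cells were lower too in 7 of 10 tested and higher in 1 (3178 to 7888 against 28330 to 33980 summed CPM). Of 8 duct markers 2 were higher (2555 to 3581 against 428 to 1334), as were 2 of 7 endothelial markers (3593 to 4890 against 2326 to 2609). Of 8 mesenchymal markers 0 were called, though all 8 lay above 0, with a median log2 fold change of 2.66. Their summed level was 828 and 4430 against 669 and 280 CPM. Of 10 acinar, 7 immune and 5 erythroid markers tested 0 were called. Of 8 stomach mucosa markers 4 could be tested, and all 4 were called higher. Their list summed to 190.4 to 319.7 CPM against 10.9 to 19.8, with 4 of 8 at 0 reads in at least 1 TSC1 KO library. In Db islets 7 of 10 β-cell markers were lower and 1 was higher (427700 and 494600 against 599900 and 920500 summed CPM). Acinar markers were higher in 7 of 9 tested and lower in 1 (138 to 300 against 23.5 to 27.7). Mesenchymal markers were higher in 5 of 7 (496 to 526 against 172 to 274). Duct markers were mixed, with 3 of 7 tested higher and 2 lower (931 to 939 against 423 to 430 summed CPM). There 4 of 7 endothelial markers were lower and 1 higher (584 to 590 against 820 to 880 summed CPM), and 4 of 5 erythroid markers were higher (38.7 to 59.3 against 10.3 to 18.1). Adult β-cells had 5 of 10 β-cell markers higher and 4 of 8 duct markers lower (430.5 to 545 against 767.5 to 997.6 summed CPM). Over all genes 8.63% were called higher and 10% lower in TSC1 KO islets. The shares were 24.3% and 23.9% in Db islets and 3.38% and 3.6% in adult β-cells. The part of these shifts in the results on initiation factors was not tested. In whole islets, fewer cells of a type and less RNA per cell cannot be told apart. Tsc1 itself read 31 and 34.5 CPM in libraries labelled TSC1 KO and 25.1 and 54.1 CPM in RC control, so it did not separate those groups, and directions follow the labels. Lepr had too few reads to test in the Db table, at most 1.18 CPM. A count over the whole gene cannot show a deletion or point mutation within it.

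Per kilobase of the longest transcript, the most abundant factors in neonatal β-cells were Eif5a (177 ± 46.0 RPKM, SD), which helps ribosomes past difficult stretches, Eif4g1 (149.6 ± 9.12) and Eif4g2 (129.6 ± 7.46), a scaffold that does not bind the cap protein. In adult β-cells the order was Eif4g2 (168 ± 3.06 RPKM), Eif4a2 (163 ± 17.5), Eif5a (155 ± 35.5) and Eif4g1 (105 ± 6.93), the first 3 lying within each other's spread. In the islet groups Eif1, which guards start codon choice, and Eif5a led, from 112 to 186 RPKM. Eif5a2, the second eIF5A gene, was among the 5 lowest detected genes of every group, at 0.241 to 1.94 RPKM.

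**Figure D1:**
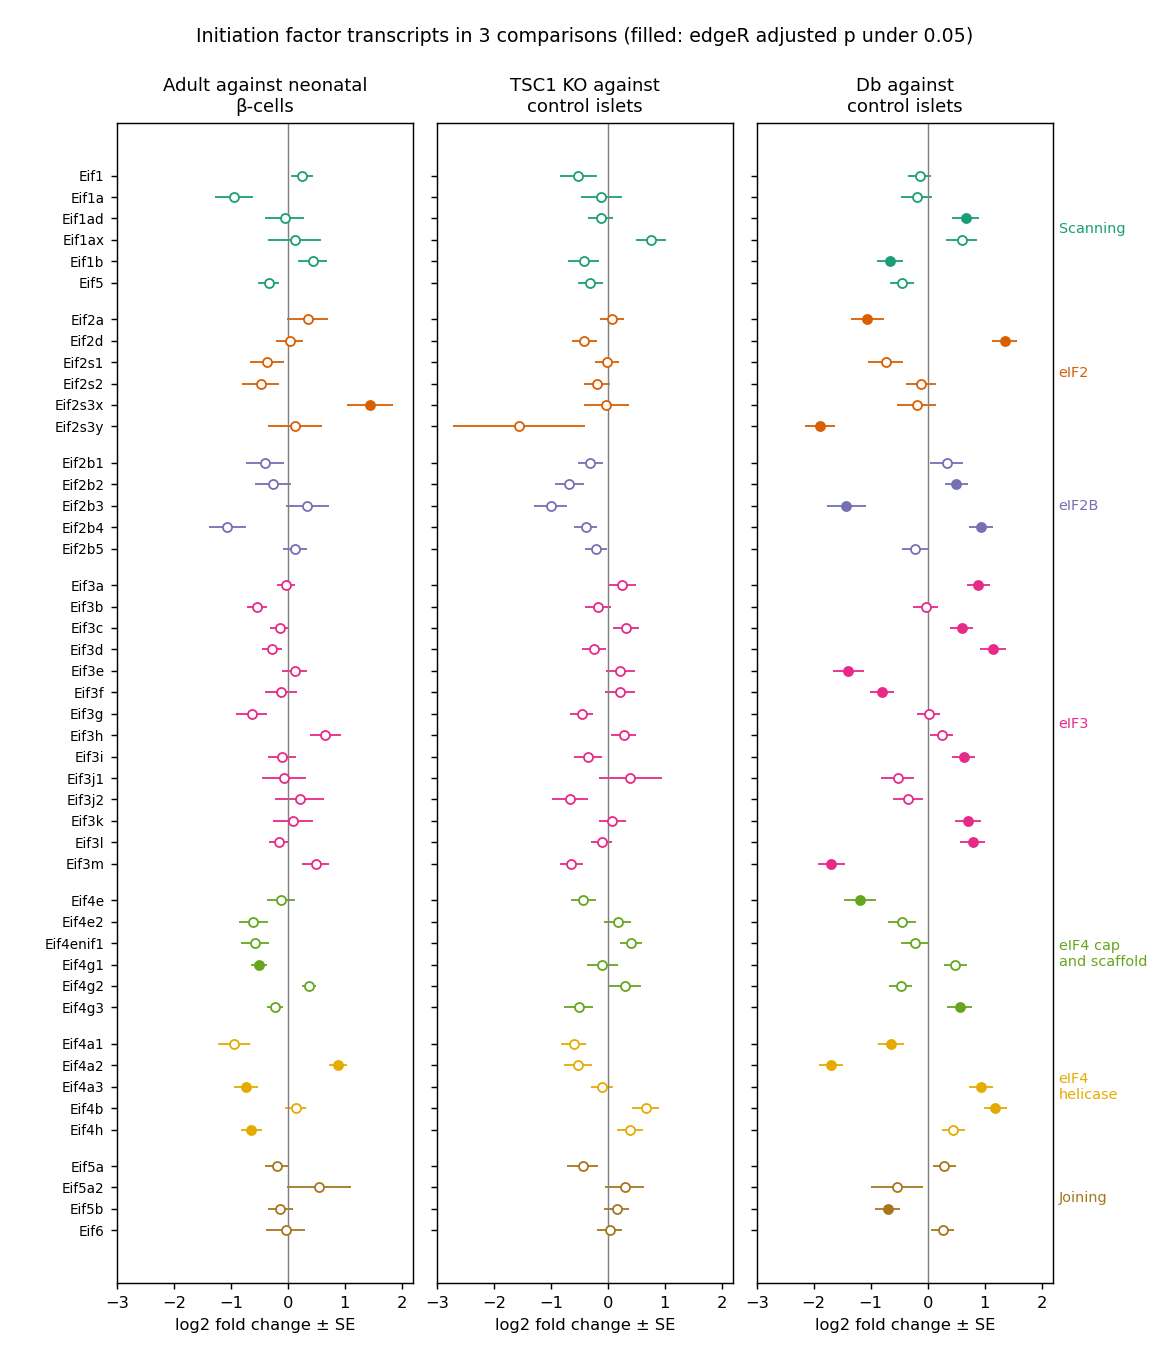
Log2 fold change ± SE (x axis) of the 46 tested initiation factor genes (y axis, ordered by role) in 3 comparisons. Filled points have an edgeR adjusted p under 0.05: 5 in β-cells of the 2 ages, 0 in TSC1 KO islets and 24 in Db islets, which lie on both sides of 0.

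Between neonatal and adult β-cells most initiation factor transcripts did not pass the test, and 5 did. Eif4a2, one of the paralogous eIF4A helicases, was higher in adults, as was Eif2s3x, the X-linked gene for eIF2γ. The scaffold Eif4g1, the cofactor Eif4h and Eif4a3, an eIF4A relative best known from the exon junction complex, were lower. In all, 2 genes were called higher and 3 lower of 46 (edgeR quasi-likelihood test, Benjamini-Hochberg adjusted p under 0.05 over 14304 genes), where 3.38% of all genes were called higher and 3.6% lower (6.98% either way). The median log2 fold change of the 46 was -0.11, against -0.03 for all genes.

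Eif4a2 (ENSMUSG00000022884) read 249.7, 220.7 and 249.7 CPM in the neonatal and 487, 446 and 393 CPM in the adult libraries. Every adult library lay above every neonatal one, as for 14% of all genes. Eif4a2 had a log2 fold change of 0.88 ± 0.15 SE (edgeR adjusted p = 0.00259). Its paralogue Eif4a1, the more widely used form in most cells, read 206, 109 and 149 CPM in neonatal against 50.8, 86.2 and 104 CPM in adult libraries and did not pass (-0.95 ± 0.27 SE, edgeR adjusted p = 0.0524), though it was called under 8 of 14 alternative settings. The ratio of Eif4a2 to Eif4a1 CPM was 1.21, 2.02 and 1.67 in neonates and 9.6, 5.18 and 3.78 in adults, with no overlap. The 2 genes are close in sequence, so reads can be credited to the wrong copy. The call of Eif4a2 held under each of the 14 settings, the smallest change being 0.64 with a trend on GC content removed.

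Eif4g1 (ENSMUSG00000045983) read 802, 826 and 901 CPM in neonatal and 584, 637 and 560 CPM in adult β-cells (log2 fold change -0.51 ± 0.14 SE, edgeR adjusted p = 0.0357). Eif4h read 222, 254 and 179 CPM against 142, 131 and 147 (-0.64 ± 0.18 SE, edgeR adjusted p = 0.0399). Eif4a3 read 113, 98.2 and 101 CPM against 63.2, 71.5 and 52.3 (-0.74 ± 0.21 SE, edgeR adjusted p = 0.0409). In each of these 3 genes every adult library lay below every neonatal one, as for 13.4% of all genes. Yet each call was lost without any one adult library and with the GC trend removed. Their log2 fold changes were then -0.37, -0.47 and -0.60 (Eif4g1, Eif4h and Eif4a3; edgeR adjusted p 0.127, 0.162 and 0.105). Eif4g2 lay higher in every adult library, at 1345, 1366 and 1318 CPM against 1095, 1038 and 976, without passing (0.37 ± 0.13 SE, edgeR adjusted p = 0.0961). Eif4e, the cap-binding protein, read 45.6 to 72.6 CPM in neonates and 51.4 to 58.5 in adults (-0.12 ± 0.24 SE, edgeR adjusted p = 0.857), and Eif4e2, Eif4g3 and Eif4b did not pass either (adjusted p 0.177, 0.435 and 0.749).

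**Figure D2:**
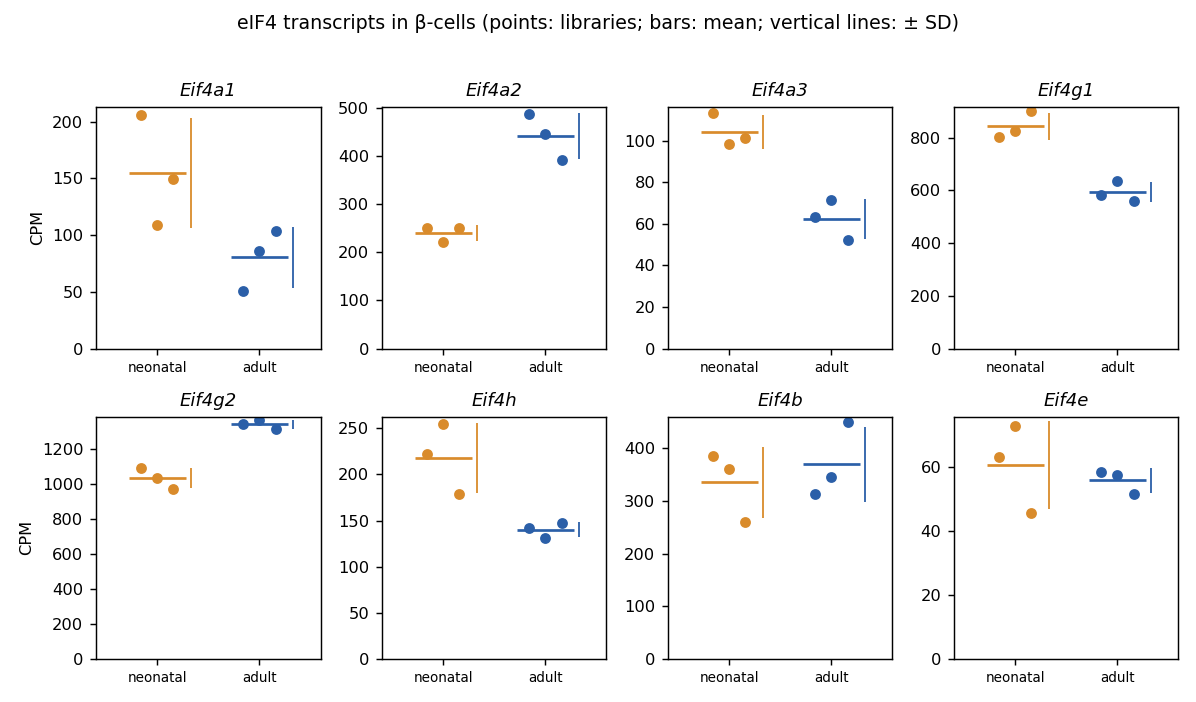
CPM (y axis) of 8 eIF4 group genes in each neonatal and adult β-cell library (points), with group mean (horizontal bar) and ± SD (vertical line). The adult libraries of Eif4a2 (393 to 487 CPM) stand well above the neonatal ones (220.7 to 249.7 CPM). Those of Eif4g2 also lie above (mean 1343 against 1036 CPM), without passing the test. Eif4a1, Eif4a3, Eif4g1 and Eif4h lie the other way.

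Eif2s3x read 13.7, 10.4 and 11.4 CPM in neonatal and 15.6, 36.6 and 44.1 CPM in adult β-cells (1.44 ± 0.40 SE, edgeR adjusted p = 0.0413). Adult replicates 2 and 3 carry the difference, and without either the call was lost (edgeR adjusted p = 0.178 and 0.263). It was lost under 8 of 14 settings in all, among them without neonatal replicate 1 or 3b (edgeR adjusted p = 0.0742 and 0.0796) and with the GC trend removed (1.29, adjusted p = 0.0782). Among the adult libraries these have the higher Xist, at 827 and 604.5 CPM against 55.4 in adult replicate 1. The neonatal libraries do not show that pairing: replicate 3b had 592.5 CPM of Xist and 11.4 of Eif2s3x, and replicate 1 had 142 and 13.7. In RC control islets the library with 953 CPM of Xist had 7.504 CPM of Eif2s3x and the one with 144 had 12.95. The part of sex was not tested. Its Y-linked partner Eif2s3y read 20.3 to 26.2 CPM in neonates and 47.3, 9.21 and 16.8 in adults (0.13 ± 0.48 SE, edgeR adjusted p = 0.928).

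No other group passed in β-cells. Of 14 eIF3 genes 0 were called (3 at an unadjusted p under 0.05; DESeq2 called Eif3b and no other, limma-voom none), of 5 eIF2B genes 0 (1 at an unadjusted p under 0.05; DESeq2 called Eif2b4), of 6 scanning genes 0 (1) and of 4 joining factors 0 (0 at an unadjusted p under 0.05). The 3 uncalled genes with the largest changes were Eif2b4, a subunit of the eIF2B exchange factor (-1.06 ± 0.32 SE, edgeR adjusted p = 0.0557), Eif4a1 and Eif1a, one of the eIF1A genes (-0.94 ± 0.33 SE, edgeR adjusted p = 0.105). Among 30 tested regulators of initiation, Paip2, a repressor of poly(A)-binding protein, rose by 0.74 ± 0.19 and Ppp1r15b, which keeps eIF2α dephosphorylated, fell by 1.10 on the log2 scale. Eif4ebp1, Eif4ebp2, Eif2ak3, Ppp1r15a and Atf4 did not pass (log2 fold changes -0.30 to 0.01, edgeR adjusted p 0.399 to 0.996). Of 20 elongation factors edgeR called 0 (0 at an unadjusted p under 0.05), as did DESeq2 and limma-voom, and of 22 ATF4 targets 1 was higher (Nupr1) and 1 lower (Sesn2).

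In TSC1 KO islets no initiation factor gene passed the test against RC control islets, although 8.63% of 14515 genes were called higher and 10% lower (18.6% in all). Of the 46 genes, edgeR called 0 (6 at an unadjusted p under 0.05), and DESeq2 and limma-voom called 0 as well (2 and 7 at an unadjusted p under 0.05). The median log2 fold change was -0.12, against -0.003 for all genes, and 29 of 46 lay below 0, as did 7283 of all 14515 genes.

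All 5 eIF2B subunits lay below 0, between -1.002 and -0.21, and both TSC1 KO libraries lay below both controls in each. Eif2b3 was the closest to the threshold, at 17.5 and 13.8 CPM in controls and 7.92 and 7.69 in TSC1 KO islets (-1.002 ± 0.29 SE, edgeR adjusted p = 0.0599). It was called lower with library size only (-1.25, edgeR adjusted p = 0.0354) and without the low-count filter (-1.04, edgeR adjusted p = 0.0447). The same held with GC and length trends removed (-1.08, edgeR adjusted p = 0.0492). Groups did not overlap in the lower direction for 34% of all genes. Eif3m, an eIF3 subunit, read 48.3 and 44.6 against 27.97 and 31.8 CPM (-0.64 ± 0.20 SE, edgeR adjusted p = 0.0715). Eif3m was called lower with library size only (-0.895, edgeR adjusted p = 0.0357), and Eif4g3 with GC and length trends removed (-0.72, edgeR adjusted p = 0.0435). Eif4b lay the other way, with 135.7 and 149.8 CPM in controls and 224 and 229 in TSC1 KO islets (0.67 ± 0.24 SE, edgeR adjusted p = 0.0977), and Eif1ax read 21.8 and 15.01 against 33.6 and 28.8 CPM (0.76 ± 0.26 SE, edgeR adjusted p = 0.0911). Eif4a1 and Eif4a2 were both lower in both TSC1 KO libraries without passing (-0.60 and -0.53, edgeR adjusted p = 0.109 and 0.171), and their ratio was 2.69 and 3.31 in controls and 2.83 and 3.53 in TSC1 KO islets. The largest uncalled change was that of Eif2s3y, with 127 and 56 reads in controls and 38 and 0 in TSC1 KO islets (-1.56 ± 1.155 SE, edgeR adjusted p = 0.386). The TSC1 KO library with 0 reads also had 0 reads for the further Y-linked genes Ddx3y, Uty and Kdm5d.

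Where 8.63% of all genes were called higher and 10% lower (18.6% either way), 0 of 30 tested regulators of initiation rose and 5 fell. These were Rps6kb2, an S6 kinase (-1.39), Mcts1, which recycles ribosomes (-1.33), Impact, an inhibitor of the eIF2 kinase GCN2 (-1.16), Mknk1, a kinase of eIF4E (-1.07), and Paip2b (-0.95; edgeR adjusted p 0.015 to 0.0494). Of 22 ATF4 targets 1 was higher (Stc2, 4.52) and 6 lower, among them Chac1 (-2.94), Slc7a5 (-2.49) and Ddit3 (-2.27). Without either TSC1 KO library edgeR called 0 of all genes.

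In Db islets initiation factor transcripts moved in both directions: 13 of 46 were called higher and 11 lower than in BKS control islets (24.3% and 23.9% of 14369 genes; 48.2% either way). The share of the 46 that was called is near that of all genes. For calls held or lost under the alternatives, no rate over all genes is at hand. Their median log2 fold change was -0.13 against -0.03. Under every one of the 13 alternatives 7 calls held: Eif2d, Eif4b, Eif3d and Eif3a higher, and Eif4a2, Eif3m and Eif2s3y lower. With a trend on GC content removed the 3 lower genes kept their calls at smaller size: Eif4a2 moved from -1.70 to -0.89, Eif3m from -1.69 to -0.80 and Eif2s3y from -1.89 to -0.86. 13 of the 24 calls were lost without some library.

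Within the eIF4F group, Eif4a2 fell most, at 101.5 and 104.9 CPM in controls and 35.3 and 28.3 in Db islets (-1.70 ± 0.21 SE, edgeR adjusted p = 1.54e-07). Eif4a1 fell too, from 15.9 and 21.7 to 12.1 and 11.9 CPM (-0.65 ± 0.23 SE, edgeR adjusted p = 0.0234), a call lost under 8 of 13 alternatives. The ratio of Eif4a2 to Eif4a1 was 6.40 and 4.84 in controls and 2.93 and 2.38 in Db islets. Eif4e was lower, at 13.4 in both controls and 7.79 and 4.02 CPM in Db (-1.18 ± 0.28 SE, edgeR adjusted p = 0.00132), a call lost with the GC trend removed (-0.43, adjusted p = 0.184). Eif4b, which stimulates the helicase, was higher at 147 and 129.5 against 68.8 and 52.8 CPM (1.19 ± 0.21 SE, edgeR adjusted p = 3.38e-05), and Eif4a3 and Eif4g3 were higher as well (0.94 and 0.56). Eif4g1, at 299 and 262 CPM in controls and 386 and 400.0 in Db, did not pass (0.48 ± 0.21 SE, edgeR adjusted p = 0.053), nor did Eif4g2 (-0.47, adjusted p = 0.0544) or Eif4e2 (-0.45, adjusted p = 0.121).

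Of 14 eIF3 genes 6 were higher (Eif3a, Eif3c, Eif3d, Eif3i, Eif3k and Eif3l) and 3 lower (Eif3e, Eif3f and Eif3m). Among all genes 24.3% were called higher and 23.9% lower. Of these 9 genes Eif3a, Eif3d and Eif3m held under every alternative. Eif3c, Eif3i, Eif3k and Eif3l, at 0.594, 0.635, 0.708 and 0.794, depended on Db replicate 2. Without it their log2 fold changes were 0.523, 0.555, 0.342 and 0.476. Eif3a, the large core subunit, read 75.5 and 59.4 CPM in controls and 122 and 128 in Db (0.89 ± 0.20 SE, edgeR adjusted p = 0.000754). Eif3d, a subunit with its own cap-binding activity, read 40.5 and 30.9 against 61.8 and 96.3 CPM (1.14 ± 0.22 SE, edgeR adjusted p = 0.000175). Eif3m read 22.4 and 21.2 CPM in controls and 7.46 and 6.06 in Db (-1.69 ± 0.24 SE, edgeR adjusted p = 1.83e-06), and Eif3e 14.2 and 12.2 against 6.25 and 3.88 (-1.39 ± 0.28 SE, edgeR adjusted p = 0.000156), Eif3e losing its call with the GC trend removed (-0.35, adjusted p = 0.266). Db and control libraries did not overlap in any of these 9 genes (37.2% of all genes did not overlap in the higher and 37.5% in the lower direction).

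Among the eIF2 genes, Eif2d, which loads initiator tRNA outside the usual route, was higher at 31.4 and 38.1 against 13.2 and 14.0 CPM (1.35 ± 0.22 SE, edgeR adjusted p = 1.35e-05). Eif2a, a non-canonical carrier, was lower (-1.06 ± 0.30 SE, edgeR adjusted p = 0.00473), a call lost under 4 of 13 settings and at -0.26 with the GC trend removed (adjusted p = 0.449). Also lower was Eif2s3y, from 17.7 and 14.0 to 5.14 and 3.44 CPM (-1.89 ± 0.27 SE, edgeR adjusted p = 2.42e-06). The other Y-linked genes examined, Ddx3y, Uty and Kdm5d, were lower in Db as well, and Xist was at 0.257 CPM or less in all 4 libraries. The core subunits Eif2s1 (-0.74, edgeR adjusted p = 0.0516), Eif2s2 and Eif2s3x did not pass. Of the eIF2B subunits Eif2b4 (0.93) and Eif2b2 (0.50) were higher, though with the GC trend removed neither passed (0.47 and 0.03, edgeR adjusted p = 0.0517 and 0.908), Eif2b3 was lower at 2.16 and 1.94 CPM against 7.07 and 3.85 (-1.43 ± 0.35 SE, edgeR adjusted p = 0.00133), and Eif2b5, the catalytic subunit, did not pass (-0.22). Of the genes grouped by symbol as scanning and joining factors, Eif1ad was higher (0.67), and Eif1b (-0.67) and the GTPase Eif5b (-0.70) were lower. Eif1, Eif1a, Eif1ax, Eif5, Eif5a, Eif5a2 and Eif6 did not pass.

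**Figure D3:**
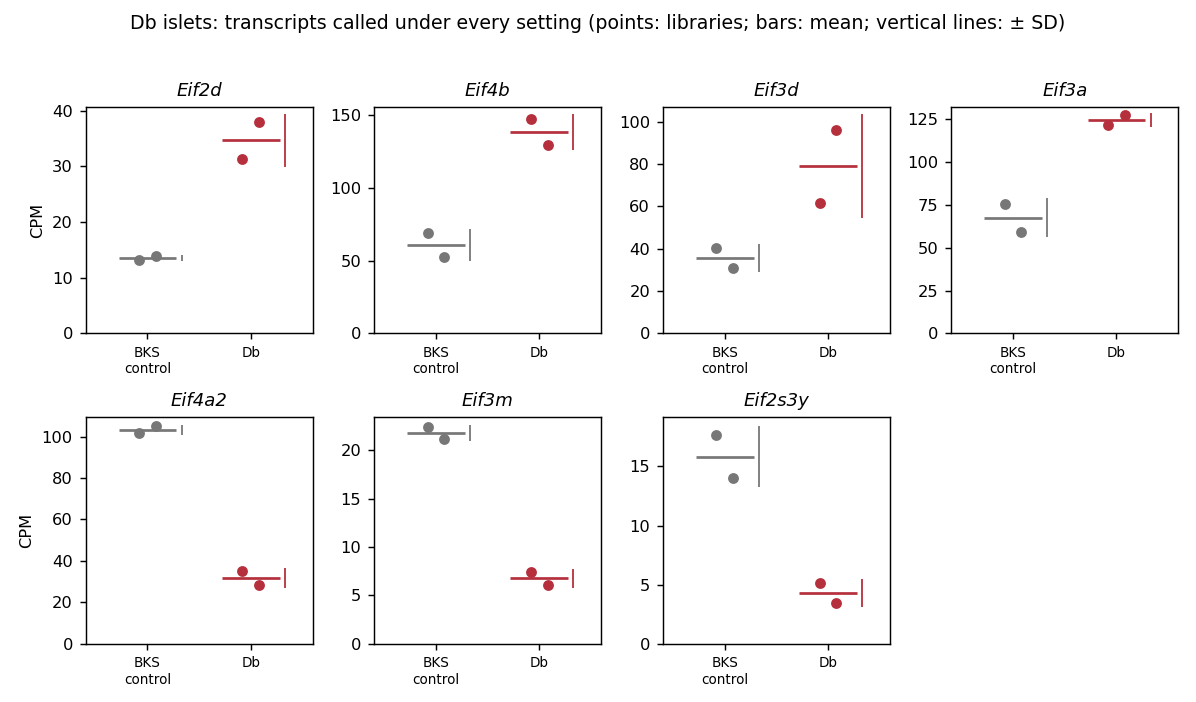
CPM (y axis) of the 7 genes called under every setting tried in Db against BKS control islets, in each library (points), with group mean (horizontal bar) and ± SD (vertical line). The 2 Db libraries lie wholly above (Eif2d, Eif4b, Eif3d, Eif3a) or wholly below (Eif4a2, Eif3m, Eif2s3y) the controls.

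Fold changes in Db islets ran with the GC share of the transcript. Across the 46 genes the Pearson correlation with the GC share of the longest transcript was 0.63, and over all genes with a transcript 0.32; genes are not independent replicates and share all 4 libraries. In adult against neonatal β-cells the values were -0.34 and -0.20, and in TSC1 KO islets 0.03 and -0.05. The median GC share was 51.26% among the genes called higher in Db and 40.53% among those called lower. In the age comparison the genes called higher in adults had 40.18% to 44.09% GC and those called lower 54.08% to 55.47%. Over all genes the median log2 fold change in Db islets was -0.74 among the 20% of genes lowest in GC and 0.31 among the 20% highest. With the trend removed 11 of the 46 genes were called higher and 7 lower. Over all 14369 genes the numbers called also fell, from 3488 to 2999 higher and from 3431 to 2641 lower. Of the 24 calls 10 were lost (Eif2a, Eif2b2, Eif2b4, Eif3e, Eif3k, Eif4a1, Eif4a3, Eif4e, Eif4g3 and Eif5b). Eif1ax (1.42), Eif2s2 (0.80) and Eif1a (0.64) were then called higher and Eif2b5 lower (-0.62).

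**Figure D4:**
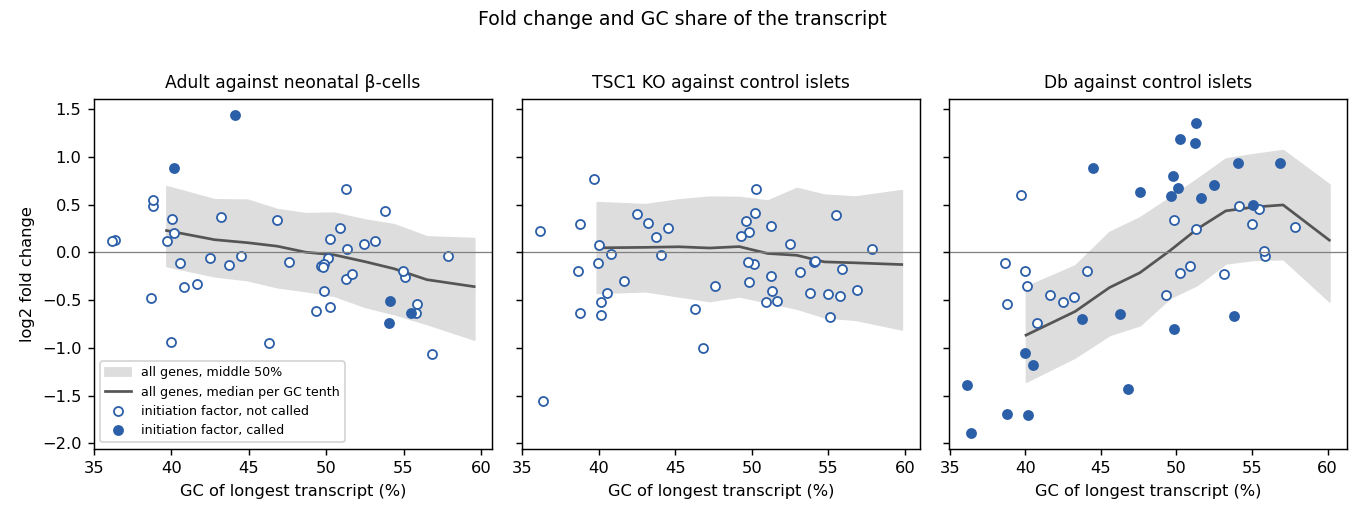
Log2 fold change (y axis) of the 46 initiation factor genes against the GC share of their longest transcript in percent (x axis), in 3 comparisons; filled points passed the edgeR test. The line and band are the median and middle 50% of all genes in bins of GC share. In Db islets they climb with GC up to a median of 0.50 and drop to 0.13 in the highest bin. In the age comparison the median falls from 0.23 in the lowest bin to -0.36 in the highest.

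**Figure D5:**
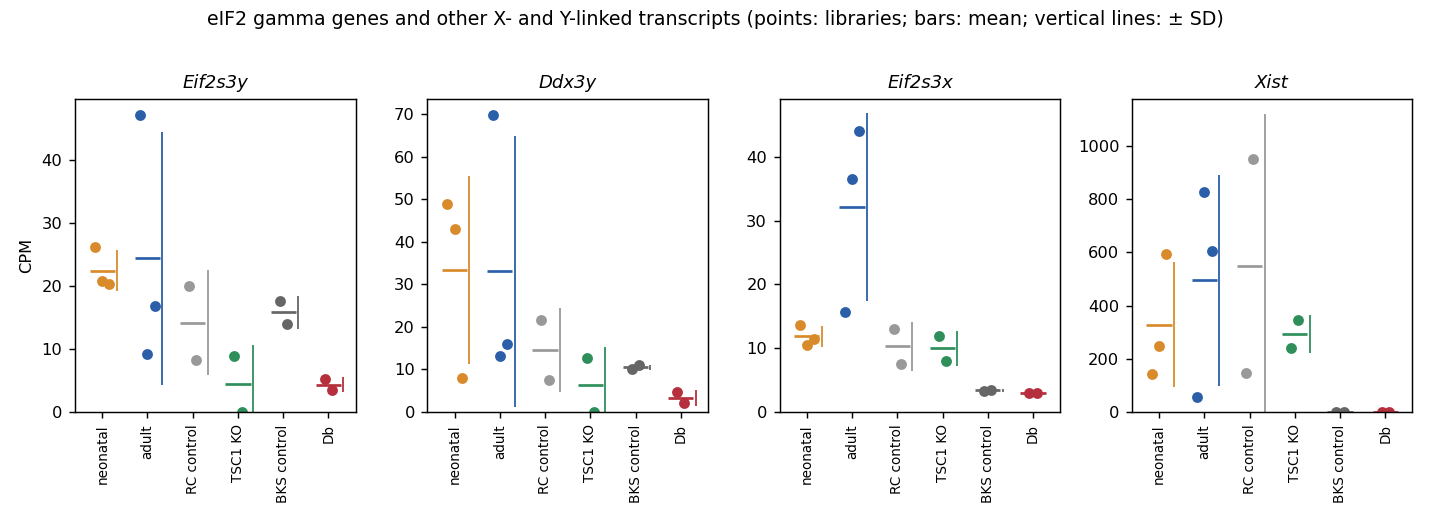
CPM (y axis) of Eif2s3y, Ddx3y, Eif2s3x and Xist in all 14 libraries (points) by group, with mean (bar) and ± SD (line). Xist is at 0.257 CPM or less in BKS control and Db islets, and a TSC1 KO library holds 0 reads of both Y-linked genes.

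Of 30 regulators of initiation 5 were higher and 8 lower in Db islets, a share near the 48.2% of all genes called. Ppp1r15a, which dephosphorylates eIF2α (1.81 ± 0.22 SE), and Eif4ebp1, the cap-step inhibitor (1.68 ± 0.25), rose. So did Trib3 (1.52) and the eIF2 kinase Eif2ak3, also known as PERK (1.23 ± 0.22). Mcts1 (-1.75), Denr, its partner (-1.53), Impact (-1.42) and Paip1 (-1.15) fell (edgeR adjusted p at most 0.000227 for all named here). Of 20 elongation and termination factors 8 rose and 2 fell, where 24.3% of all genes were called higher and 23.9% lower. Eef2, the translocase, was at 1.90 ± 0.24, Pelo at 1.67 and Hbs1l at -1.20. Of 21 ATF4 targets 16 were higher and 1 lower, with a median of 1.04. Ppp1r15a, Trib3 and Eif4ebp1 are counted in this list as well as among the regulators. Atf4 itself (0.36 ± 0.21 SE, edgeR adjusted p = 0.161) and Eif4ebp2 (0.50, adjusted p = 0.0989) did not pass.

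Eif4a2 and Eif4a3 were the genes called in both the age and the Db comparison, each in opposite directions: Eif4a2 at 0.88 and -1.70, Eif4a3 at -0.74 and 0.94. The GC trends of these comparisons also ran opposite ways. With them removed Eif4a2 kept both calls, at 0.64 and -0.89, and Eif4a3 kept neither, at -0.60 and 0.51 (edgeR adjusted p = 0.105 and 0.0629). To compare the islet contrasts, all 8 islet libraries entered a single edgeR model with an interaction term. It called 4 genes higher and 8 lower in TSC1 KO minus Db (13.2% and 18.6% of 15702 genes; 31.8% either way). Eif2d (-1.85 ± 0.30 SE, edgeR adjusted p = 0.000835) and Eif3d (-1.48 ± 0.34 SE, edgeR adjusted p = 0.00635) were the calls that held under every one of 17 settings.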

How the data were processed

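RNA-seq gene counts were deposited by the authors as raw whole numbers of reads per Ensembl gene in 3 tables, with no normalization. Per the labels' protocols, RNA was extracted with Trizol and libraries made with the SMARTer Stranded kit. The tools HTSeq 0.7.1, cutadapt 1.13, GSNAP and DESeq2 1.16.0 come from the submitters' processing notes (per the submitters' processing notes, also builds mm9 and NCBIM37). No source used here gives the strand setting of the counting, so overlapping and antisense genes, and close copies such as Eif4a1 and Eif4a2, Eif1 and Eif1b, Eif1a and Eif1ax, Eif3j1 and Eif3j2 or Eif2s3x and Eif2s3y, are uncertain. Symbols matched 32620 of 37310 identifiers (87.4%). Rows naming no gene stayed out of library sizes; gene rows held 24.52% to 43.11% of reads in the β-cell table and 35.1% to 44.27% in the Db table. In the neonatal columns 2 headings carry number 3 and none number 2, here replicates 3a and 3b.

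Each comparison was fitted within its own table with edgeR 4.0.16 (R 4.3.3; filterByExpr with minimum count 10 and minimum total count 15, TMM, robust quasi-likelihood test, two-sided, Benjamini-Hochberg over all genes tested, threshold 0.05). CPM use the effective library size and RPKM the longest transcript. Replicate libraries differed beyond sampling noise (chi-square per degree of freedom 10.03 to 81.32), so each counts as 1. The labels do not say that libraries of a group are separate animals, and p-values then reflect library spread that can be technical. Alternatives were DESeq2 1.42.0, limma-voom (limma 3.58.1), RLE size factors, library size only, no low-count filter, insulin and mitochondrial genes left out, the replicate block, each library left out and, chosen after seeing the data, GC and length trends removed. The fits were tested on simulated data.

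Genes named are those called, a list of central factors named whatever their values, and the 3 uncalled genes with the largest changes. Regulators, elongation factors and ATF4 targets are named by the 4 largest called changes. The genes and lists were chosen with earlier results of these data known. Only promoters credited to RefSeq GRCm38.p6 carry coordinates. The replicate numbers of the islet groups did not pair the samples.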

Additional observations from a re-analysis of the deposited data

Results flagged for a closer look

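For 12 of 46 initiation factor genes (26.1%) the joint edgeR fit found that the TSC1 KO effect differed from the Db effect (adjusted p under 0.05). Among all 15702 genes the share was 31.8%. The controls differ between the 2 effects, as do age and table. The difference, TSC1 KO log2 fold change minus Db log2 fold change on the scale of that fit, was -1.85 for Eif2d, -1.48 for Eif3d, -1.42 for Eif2b4, -1.26 for Eif2b2, -1.17 for Eif4g3, -1.13 for Eif4a3, -1.07 for Eif3i and -0.99 for Eif3l. In these 8 genes the Db fold change was above 0 and the TSC1 KO fold change below 0, though no initiation factor gene passed in TSC1 KO islets. The difference was 1.53 for Eif3e, 1.08 for Eif4a2, 0.96 for Eif3m and 0.92 for Eif3f. Among these, Eif4a2 and Eif3m were below 0 in both comparisons, and Eif3e and Eif3f were above 0 in TSC1 KO islets and below 0 in Db islets. With the GC trend removed 6 of the 12 were still called. Eif3m then moved from 0.96 to 0.04, Eif4a2 from 1.08 to 0.26 and Eif3e from 1.53 to 0.49, and Eif2b2, Eif4a3 and Eif4g3 lost their calls at -0.67, -0.61 and -0.88. Over the 17 settings Eif3m lost its call in 12 and Eif3f in 9.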

How the results depend on the processing

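In β-cells the counts called higher and lower (2 and 3) became 1 and 7 with library size only, where the median of all genes moved to -0.19; 6 were lower without the low-count filter and with DESeq2, and 1 was higher with limma-voom and with either trend removed. Leaving out 1 library gave 1 to 2 higher and 0 to 4 lower: 1 lower without neonatal replicate 1 or adult replicate 3 and 0 without adult replicate 1 or 2, and 1 higher without neonatal replicate 3b or adult replicate 2 or 3. In TSC1 KO islets (0 and 0) library size only gave 2 lower (median of all genes -0.25), no filter 1 and GC and length trends removed 2, and leaving out 1 library 0 to 1 higher and 0 to 2 lower. In Db islets (13 and 11) 6 were lower with library size only (median of all genes 0.29) and 7 with the GC or GC and length trends removed; leaving out 1 library gave 7 to 16 higher and 6 to 11 lower, the lowest, 7 and 6, without Db replicate 2. Eif1a and Eif2s2 turned from -0.19 and -0.12 to 0.64 and 0.80 with the GC trend removed, and to 0.64 and 0.76 with length as well. For TSC1 KO minus Db (4 and 8) there were 0 higher with library size only (median of all genes -0.47), 2 without the filter and 1 with either trend removed; leaving out 1 library gave 0 to 5 higher and 5 to 11 lower. The cause was not tested. Of the values of named genes over all settings, 305 of 350 in β-cells and 292 of 299 in TSC1 KO islets kept their side of the threshold. So did 428 of 494 in Db islets and 148 of 204 in the difference. A change of sign where neither value passed was counted as kept. One example is Eif5 in Db islets, which ran from -0.70 to 0.25.

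With the replicate block, counts were 0 and 0 in TSC1 KO, 12 and 11 in Db and 2 and 6 in the difference between them; same-numbered libraries did not deviate together (correlations -0.06 and -0.06), so they share only a number. In β-cells: No paired analysis was possible because the neonatal headings do not carry 3 distinct numbers.

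Islet comparisons leave 2 residual degrees of freedom each. Every edgeR call in TSC1 KO islets needs both TSC1 KO libraries. TSC1 KO libraries are the shallowest, and 23 reads stand behind the lowest Eif2b3 value there.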
